A study of Mus musculus with 32 samples.

Results

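Osteochondrogenic and calcification regulators were followed as a set of 10 genes that steer or restrain cartilage-like and bone-like change in the artery wall: Sox9, Runx2, Sp7, Alpl, Acan, Mgp, Enpp1, Tnfrsf11b, Ibsp and Chad. The genes were chosen by name, with earlier results of these data known. All 10 were found among the 23284 genes of both count tables, 1 of lesions and 1 of cultured cells. In lesions all 10 had enough counts to be tested. In culture 6 did (Sox9, Runx2, Mgp, Enpp1, Tnfrsf11b and Chad), and Sp7, Alpl, Acan and Ibsp are given as counts.

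Smooth muscle cells (SMC) of a diseased artery can lose contractile proteins and take on features of cartilage and bone cells. Sox9 drives the cartilage programme, whose matrix includes the proteoglycan aggrecan (Acan) and the cell-binding protein chondroadherin (Chad), while Runx2 and, downstream of it, Sp7 (osterix) drive the bone programme, whose matrix includes bone sialoprotein (Ibsp). Whether mineral forms depends on pyrophosphate, which Enpp1 makes outside the cell and tissue-nonspecific alkaline phosphatase (Alpl) breaks down, and on protein inhibitors such as matrix Gla protein (Mgp). Osteoprotegerin (Tnfrsf11b) is a decoy receptor that keeps the cytokine RANKL from osteoclast precursors, and mice that lack it, or Mgp, calcify their arteries.

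RNA was sequenced in 32 libraries from C57BL/6 mice. The lesion libraries came from brachiocephalic arteries of 4 Oct4 -/- (KO) and 4 wild type (WT) animals, all of them on a Western diet for 18 weeks. The culture libraries came from 1 primary aortic SMC line per genotype, kept in normoxia or in hypoxia (1% O2) with either vehicle or POVPC, an oxidized phospholipid, which makes 8 groups of 3. The study asks what Oct4, a pluripotency factor, does in SMC during atherosclerosis. The age of the animals, the promoter or Cre that removes Oct4 and the Apoe genotype are not given in the sources used here. Each genotype in culture is a single line, so its differences cannot be told apart from differences between 2 lines, and p-values there measure only the spread between libraries of those lines. Lesion RNA is labelled as a mixture of cells that holds SMC and macrophages, so fewer cells of a type and less RNA per cell cannot be told apart.

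Levels are given as CPM, a gene's counts relative to its library total after TMM scaling, with SD, and levels of different genes are compared only as CPM per kilobase of exon. Changes are log2 fold changes with their standard error (SE). A gene rose or fell where the FDR of edgeR's quasi-likelihood test, Benjamini-Hochberg adjusted over all genes tested, was under 0.05. Libraries held 6526099 to 11137414 counts in lesions and 8063121 to 30231799 in culture, so that 3 counts stand for 0.267 to 0.456 CPM in a lesion library and for 0.0954 to 0.410 CPM in a culture library. Pou5f1, which encodes Oct4, had 0 counts in the 4 KO lesions and 3 in the 4 WT lesions, all in WT 1, and 4 counts in the 24 culture libraries, so it cannot check the genotype labels. KO 4 stood apart from the other KO lesions (chi-square per degree of freedom 32.2 to 63.1, against 7.54 to 18.7 among the other 3) and WT 1 differed from each other WT lesion by 27.2 to 27.6, against 8.48 to 26 among the other 3, so WT 1 stood apart less clearly. In culture the lowest totals were those of 3 hypoxia libraries, WT POVPC 1 and 2 and KO vehicle 3. They held 5.79, 9.24 and 8.07 multimapping alignments (to several places) per assigned one, against 0.743 to 3.88 in the other culture libraries. Defining SMC markers were low in culture: Myh11 averaged 0.243 to 5.15 CPM over the 8 groups and Cnn1 0.0825 to 1.48 CPM, against group means of 1836 and 165 CPM or more in lesions.

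In the lesions none of the 10 genes passed the test between KO and WT (0 of 10, where 0% of all 14993 genes were called), and the KO and WT animals overlapped for each of them. The lowest p-values belonged to Chad, Sp7 and Alpl, whose means were lower in KO, and Sp7, Ibsp, Acan and Chad varied most between animals. The inhibitors Mgp, Enpp1 and Tnfrsf11b did not share the lower KO means. Without adjustment 3 of the 10 genes, and 2216 of all genes, had p under 0.05, and DESeq2 called 447 genes, among them Chad. The median log2 difference of the 10 genes was -0.49, beside -0.0086 over all genes tested.

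**Figure D1:**
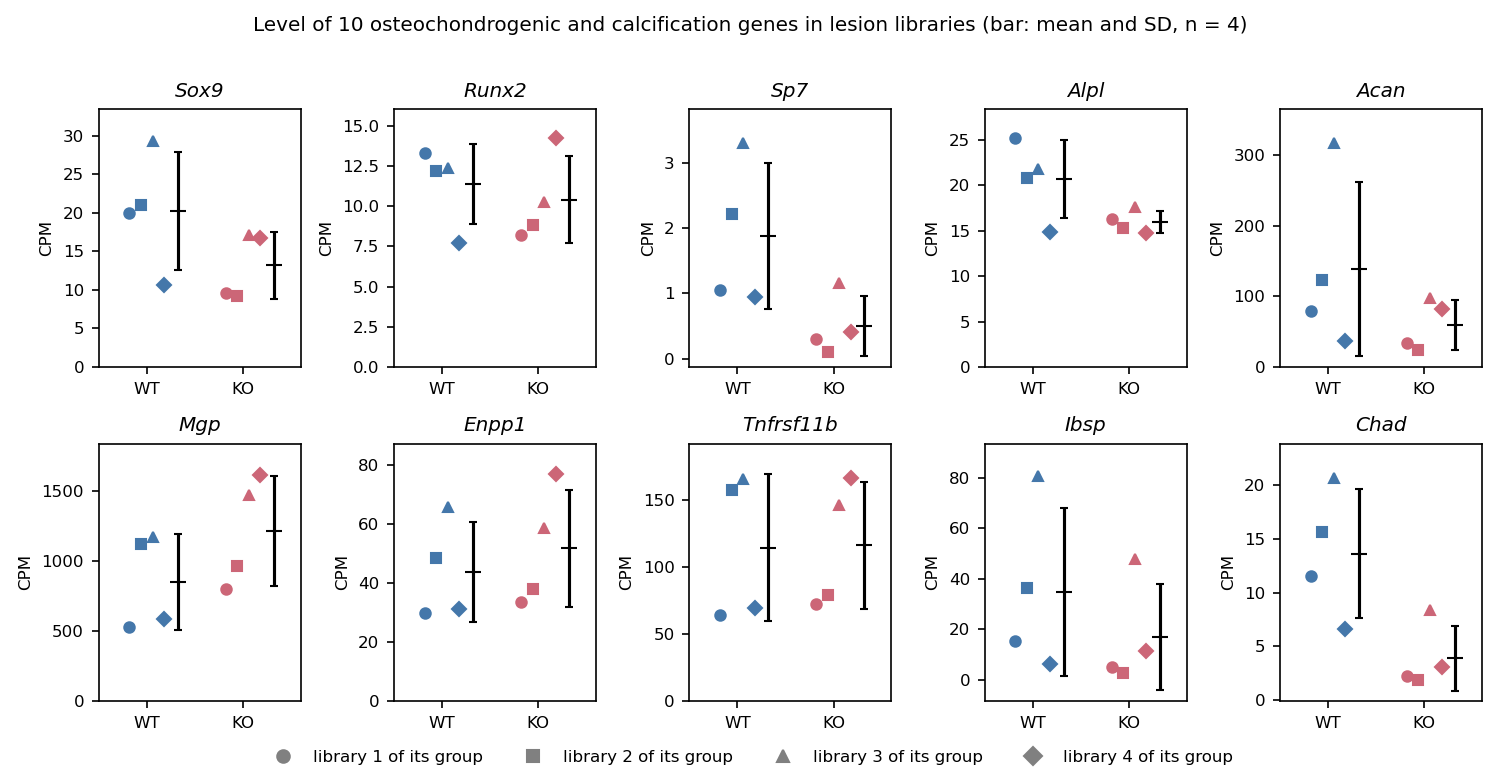
CPM of each of the 10 genes (vertical axes, a linear scale of its own per panel) in WT and KO lesion libraries, with 1 point per library and the mean and SD of 4 beside them; the marker shape gives the library's number within its group and pairs nothing. In all 10 panels the KO and WT points overlap, and in Acan, Ibsp, Sp7, Chad and Sox9 the highest point is WT 3.

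Among the transcription factors, Sox9 in KO lesions was at 9.58, 9.27, 17.1 and 16.8 CPM (animals 1 to 4) and in WT lesions at 20, 21.1, 29.4 and 10.7 CPM. WT animals 1 to 3 were above every KO animal and WT 4 was among the low ones, and the difference was -0.61 ± 0.32 (FDR 0.418). Sp7 was near the detection limit, at 0.304, 0.104, 1.16 and 0.412 CPM in KO and 1.05, 2.22, 3.31 and 0.940 CPM in WT. Only KO 3 reached the WT range, and the difference was -1.88 ± 0.63 (FDR 0.229). Runx2 ranged from 8.21 to 14.2 CPM in KO and from 7.73 to 13.3 CPM in WT, with the highest value in KO 4 and the lowest in WT 4. Its difference was -0.13 ± 0.22 (FDR 0.805).

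The matrix genes Chad, Acan and Ibsp varied widely between animals. Chad was at 2.28, 1.87, 8.35 and 3.09 CPM in KO and 11.6, 15.7, 20.7 and 6.58 CPM in WT. KO 3 overlapped the WT range and the other 3 KO animals were below it, with a difference of -1.79 ± 0.52 (FDR 0.198). DESeq2 gave Chad -1.80 with an FDR of 0.0167, the only one of the 10 genes it called. Acan was at 34.7, 23.8, 98.0 and 81.6 CPM in KO and 79.4, 123.7, 316.8 and 36.7 CPM in WT. The Acan groups overlapped broadly and WT 3 lay far above the other animals, with a difference of -1.22 ± 0.72 (FDR 0.472), or -0.43 without WT 3. Ibsp was at 5.02, 2.60, 47.7 and 11.3 CPM in KO and 15.2, 36.2, 80.7 and 5.95 CPM in WT. KO 3 and WT 3 were the highest animals of their genotypes, and the difference of -1.04 ± 1.03 (FDR 0.669) was about as large as its SE. It was -0.20 without WT 3 and -2.47 without KO 3, so that 1 animal moved it widely. Leaving out KO 3 also moved Sp7 to -2.77 and Chad to -2.51, and no single animal turned the sign of these 4 genes.

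Of the genes that set pyrophosphate, Alpl was at 16.3, 15.3, 17.5 and 14.7 CPM in KO and 25.2, 20.8, 21.8 and 14.8 CPM in WT. WT 1 to 3 lay above all KO animals and WT 4 at the bottom with KO 4, and the difference was -0.37 ± 0.16 (FDR 0.313). Enpp1 ranged from 33.7 to 76.9 CPM in KO and from 29.8 to 65.8 CPM in WT, a difference of 0.24 ± 0.34 (FDR 0.766). Mgp was at 803, 966, 1473 and 1619 CPM in KO and 533, 1124, 1177 and 585 CPM in WT. KO 3 and KO 4 held the 2 highest Mgp levels and WT 1 and WT 4 the 2 lowest, with a difference of 0.51 ± 0.33 (FDR 0.504). Tnfrsf11b ranged from 72.4 to 166.5 CPM in KO and from 64.4 to 165.5 CPM in WT. Its means were 116 ± 47.5 and 114 ± 54.7 CPM (SD, n = 4 each), and its difference was 0.02 ± 0.42 (FDR 0.982).

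Without KO 4 and WT 1 together, none of the 10 genes was called either. Mgp then differed by 0.15 in place of 0.51, Enpp1 by -0.17, Tnfrsf11b by -0.42, Chad by -1.76 and Sp7 by -1.98, so the sign of Enpp1 and of Tnfrsf11b turned.

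The spread between animals was wide for 4 genes and narrower for the other 6, and those 4 genes also had the largest differences between the genotypes. Over the 8 animals the highest level was 31.8 times the lowest for Sp7, 31.0 times for Ibsp, 13.3 times for Acan and 11.1 times for Chad. It was 3.17 times for Sox9, 3.04 for Mgp, 2.59 for Tnfrsf11b, 2.58 for Enpp1, 1.84 for Runx2 and 1.71 for Alpl. These ratios span both genotypes and so include the difference between them. Within WT animals the ratio was 13.6 for Ibsp, 8.64 for Acan, 3.52 for Sp7 and 3.15 for Chad. Within KO animals it was 18.3, 4.11, 11.2 and 4.45. The other 6 genes reached at most 2.76 in WT (Sox9) and 2.30 in KO (Tnfrsf11b). WT 3 was among the 3 highest animals for 10 of the 10 genes and was the highest for 5. KO 1 was among the 3 lowest for 9 genes, WT 4 for 8 and KO 2 for 7, so each genotype had animals at the low end.

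**Figure D2:**
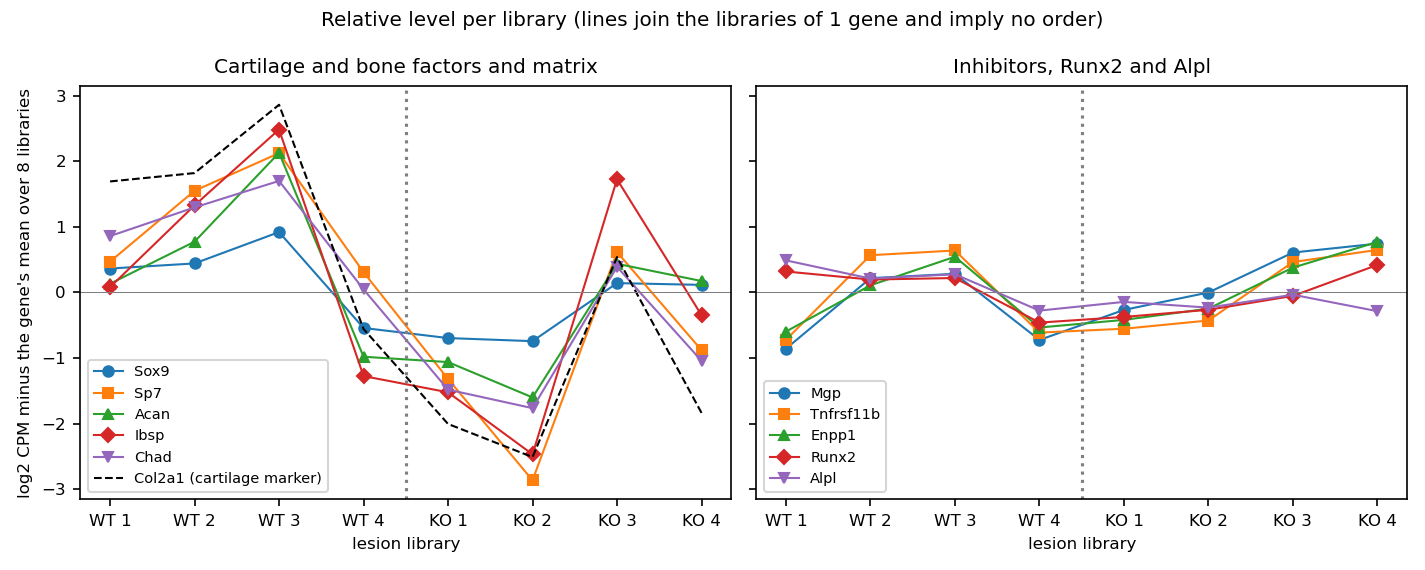
Log2 CPM of each gene minus its own mean over the 8 lesion libraries (vertical axis), per library (horizontal axis), for cartilage and bone factors and matrix with Col2a1 as a dashed line on the left, and for the inhibitors, Runx2 and Alpl on the right. The left genes swing widely, with Sp7 31.8 times and Ibsp 31.0 times as high in the highest as in the lowest animal, while Alpl on the right spans 1.71 times.

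Cartilage markers varied widely between animals too. Col2a1, the collagen of hyaline cartilage, was at 43.0, 30.3, 251 and 48.3 CPM in KO lesions and 559, 610.4, 1256 and 117 CPM in WT lesions. The summed level of 9 chondrocyte markers ranged from 128 to 434 CPM in KO and from 206 to 1628 CPM in WT, highest in WT 3 and, among KO animals, in KO 3. A library had at most 1 of these 9 markers at 0. The bone markers Bglap (osteocalcin) and Bglap2 were at 0 in the 4 KO libraries, but 2 of 5 bone markers were also at 0 in WT 2 and WT 4. Bglap averaged 0.146 CPM in WT, under what 3 counts stand for in a lesion library. The summed level of the 5 bone markers overlapped, from 1161 to 2855 CPM in KO and from 1355 to 3150 CPM in WT. The 5 include Col1a1, the main collagen of bone and artery, so their sum is not particular to bone cells. Only 2 of the 5 had enough counts to be tested in lesions. Summed macrophage markers ran from 3422 to 8292 CPM in KO and from 2016 to 3080 CPM in WT, and contractile SMC markers from 3854 to 5749 CPM in KO and from 5545 to 8410 CPM in WT. The part of these cell mixtures in the levels of the 10 genes was not tested.

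A wider list of 58 cartilage, bone, mineral and osteoclast genes, written with earlier results of these data known, was read beside the 10. Of its 44 genes tested in lesions 0 were called, 10 had p under 0.05 before adjustment, 17 had positive and 27 negative differences, and the median was -0.028. The 16 chondrogenic genes tested had 14 negative differences and a median of -0.72. The 6 genes with the smallest p were the osteoclast enzyme Acp5 (0.81 ± 0.15, FDR 0.167), the phosphoprotein osteopontin (Spp1, 1.33 ± 0.34, FDR 0.172), the cartilage collagens Col9a3 (-1.17 ± 0.32, FDR 0.172) and Col11a2 (-2.21 ± 0.56, FDR 0.172), the adenosine-forming Nt5e (0.33 ± 0.10, FDR 0.210) and the protease cathepsin K (Ctsk, 1.19 ± 0.37, FDR 0.221). None of the 6 passed the adjusted test, and 2216 of all 14993 genes had p under 0.05 before adjustment. Acp5 and Ctsk are made by osteoclasts and also by macrophages, whose summed markers were higher in KO lesions as given above. The part of either cell type in the levels of Acp5 and Ctsk was not tested.

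Per kilobase of exon Mgp was the highest of the 10 genes in both genotypes, at 2029 ± 655 CPM per kb in KO and 1427 ± 572 in WT lesions, followed by Tnfrsf11b at 41.2 ± 16.8 and 40.5 ± 19.4. Sp7 was the lowest, at 0.217 ± 0.202 and 0.824 ± 0.488, and Runx2 came next at 1.5 ± 0.390 and 1.64 ± 0.359. Between them the order depended on genotype, with Enpp1 next after Tnfrsf11b in KO (16.1 ± 6.19) and Acan in WT (18.9 ± 16.8). The SDs of Enpp1, Ibsp and Acan overlapped in both genotypes, so their order was not resolved.

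In cultured cells 4 of the 10 genes were near the detection limit. Sp7 had 32 counts in the 24 libraries together (at most 6 in a library), Acan 32 (at most 10), Alpl 23 (at most 6) and Ibsp 8 (at most 2). The 8 Ibsp counts were all in KO libraries, in 4 of the 12, and the 12 WT libraries had 0. Acan had 27 counts in WT and 5 in KO libraries, Sp7 18 and 14, and Alpl 12 and 11. With so few counts these splits are not read as differences between the lines. Of the 6 genes tested, Mgp was again the highest per kilobase in WT cells under vehicle and normoxia, at 154 ± 7.32 CPM per kb, then Tnfrsf11b (26.6 ± 3.74), Sox9 (6.06 ± 0.985), Enpp1 (5.39 ± 0.180), Runx2 (2.09 ± 0.0653) and Chad (0.874 ± 0.286). Sox9 and Enpp1 did not differ beyond their SD in that order.

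**Figure D3:**
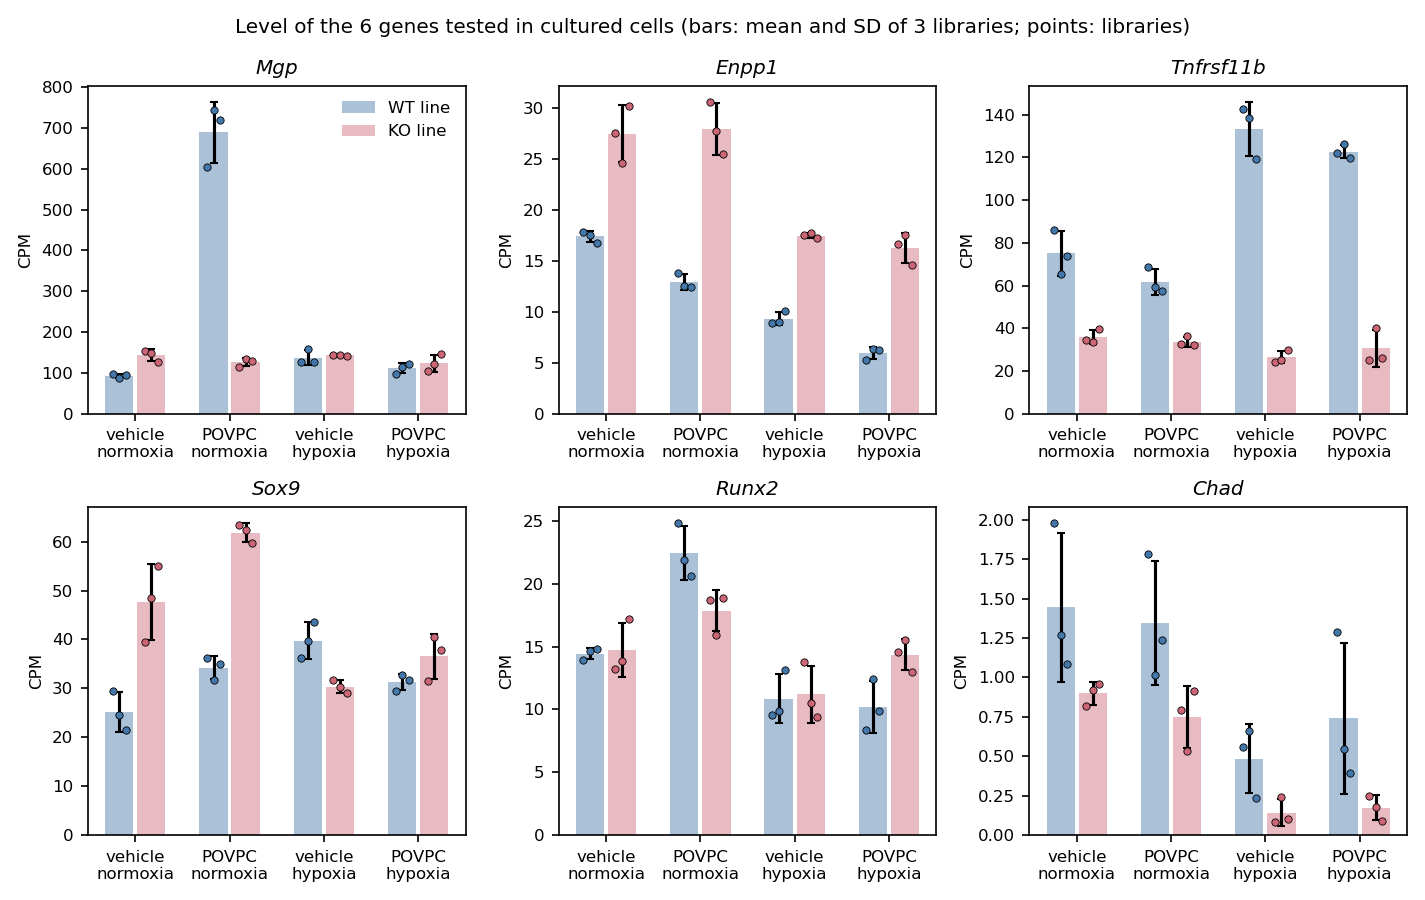
CPM of the 6 genes tested in culture (vertical axes, linear from 0) in WT and KO cells under vehicle or POVPC in normoxia or hypoxia; bars and whiskers are the mean and SD of 3 libraries and points are libraries. Mgp in WT cells given POVPC in normoxia (605 to 745 CPM) stands above the other 7 Mgp groups (87.5 to 157 CPM), and Tnfrsf11b is higher in WT than in KO cells in each condition.

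Mgp gave the largest single change of the set. WT cells under vehicle and normoxia held 95.8, 87.5 and 93.9 CPM, and WT cells given POVPC in normoxia held 605, 745 and 721 CPM. The other 6 groups lay between 97.4 and 157 CPM, and their neighbours in the order of means overlapped. Mgp therefore was high in 1 group of 8, WT cells with POVPC in normoxia, and lowest in the same cells with vehicle. Tnfrsf11b formed another order, by line: WT cells in hypoxia were highest (143, 139 and 119 CPM with vehicle and 122, 126 and 120 CPM with POVPC), WT cells in normoxia came next (57.4 to 86.2 CPM), and the 12 KO libraries were lowest (24.3 to 40.3 CPM). Enpp1 was highest in KO cells in normoxia (24.6 to 30.6 CPM) and lowest in WT cells with POVPC in hypoxia (5.30, 6.28 and 6.25 CPM).

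Sox9 was highest in KO cells with POVPC in normoxia, at 63.4, 62.4 and 59.7 CPM, and lowest in WT cells with vehicle in normoxia, at 29.5, 24.5 and 21.4 CPM. Below the top group each group overlapped its neighbour in the order of means, so that only the top stood clear. Runx2 was highest in WT cells with POVPC in normoxia, at 24.8, 21.9 and 20.6 CPM, then in KO cells so treated (16 to 18.9 CPM), and the other 6 groups lay between 8.33 and 17.2 CPM. Chad was low everywhere, from 1.08 to 1.98 CPM in WT cells with vehicle in normoxia down to 0.0844 to 0.238 CPM in KO cells with vehicle in hypoxia, and its 24 libraries held 286 counts in WT and 145 in KO cells.

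Between the lines, Enpp1 was higher and Tnfrsf11b lower in KO than in WT cells in each of the 4 conditions, while Sox9, Mgp and Runx2 had differences whose sign depended on the condition. The genotype tests share no libraries with each other, but each uses groups that also enter the POVPC and hypoxia tests, and all rest on the same 2 lines. Under vehicle in normoxia 3 of the 6 genes were higher and 1 lower in KO cells (60.6% of all 14496 genes were called there). With POVPC in normoxia 2 were higher and 3 lower (60.2% of all genes), with vehicle in hypoxia 1 higher and 3 lower (59.9%), and with POVPC in hypoxia 2 higher and 2 lower (57.6%). With 17 of 24 genotype results called, the share was near that of all genes.

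The pyrophosphate enzyme Enpp1 was at 17.4 ± 0.581 CPM in WT and 27.5 ± 2.78 CPM in KO cells (SD, n = 3) under vehicle in normoxia, a difference of 0.66 ± 0.10 (FDR 1.80e-06). Its difference was 1.11 ± 0.10 with POVPC in normoxia, 0.91 ± 0.11 with vehicle in hypoxia and 1.45 ± 0.12 with POVPC in hypoxia, and no library overlapped in any of them. Tnfrsf11b, the RANKL decoy, was lower in KO cells by 1.07 ± 0.13 (log2 change -1.07) under vehicle in normoxia, from 75.1 ± 10.5 to 35.8 ± 3.42 CPM. In hypoxia its log2 change was -2.35 ± 0.14 with vehicle and -2.01 ± 0.14 with POVPC, with means of 134 ± 12.6 and 26.4 ± 2.94 CPM in the former. The fitted fold there was 5.10, with no overlap between the libraries.

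Sox9 was higher in KO cells in normoxia, by 0.93 ± 0.11 with vehicle and 0.85 ± 0.11 with POVPC, and lower with vehicle in hypoxia (-0.39 ± 0.11, FDR 0.00423). With POVPC in hypoxia it differed by 0.22 ± 0.12 (FDR 0.0974) and was not called. Mgp was higher in KO cells with vehicle in normoxia (0.63 ± 0.11) and lower with POVPC in normoxia (-2.45 ± 0.11, 5.48-fold), where its p-value ranked 275 of 14496. In hypoxia its differences were 0.06 ± 0.11 and 0.16 ± 0.11, not called. Runx2 was higher in KO cells with POVPC in hypoxia (0.52 ± 0.16) and lower with POVPC in normoxia (-0.33 ± 0.14, FDR 0.0420). The latter call was lost with library size alone (-0.30) and without any 1 of WT POVPC normoxia 1 or 2 or KO POVPC normoxia 1, 2 or 3, with values from -0.25 to -0.37. Chad was lower in KO cells in hypoxia, by -1.64 ± 0.64 with vehicle and -2.0 ± 0.60 with POVPC. The former call was lost without WT vehicle hypoxia 1 or 2 or KO vehicle hypoxia 1 or 3 (-1.27 to -1.55) and the latter without WT POVPC hypoxia 1 (-1.30) or without the 3 shallowest libraries (-1.17). With POVPC in normoxia Chad was called lower when only the groups compared were fitted (-0.84, FDR 0.0380).

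Cell markers moved with genotype as well. The summed contractile markers were 313 to 368 CPM in WT and 128 to 182 CPM in KO cells under vehicle in normoxia, and Myh11 averaged 5.15 and 0.243 CPM. Of the 6 adventitial fibroblast markers 4 rose and 2 fell in KO cells in that condition. The part of such differences between the lines in the results above was not tested.

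POVPC changed 4 of the 6 genes in WT cells in normoxia and 3 in hypoxia, and none was called in KO cells. In WT cells in normoxia Mgp, Runx2 and Sox9 rose and Enpp1 fell (26.9% of all genes were called), and in WT cells in hypoxia 3 genes fell and 0 rose (21% of all genes). In KO cells 0 of 6 genes were called by edgeR or by DESeq2 in either oxygen level, where 0.0414% of all genes were called in normoxia and 4.06% in hypoxia. Before adjustment 1 of the 6 (Sox9) had p under 0.05 in KO cells in normoxia and 2 (Sox9 and Runx2) in hypoxia. Sox9 in KO cells in normoxia was called once KO vehicle normoxia 3 was left out (0.49, FDR 0.0330). That library differed from KO vehicle normoxia 1 and 2 by a chi-square per degree of freedom of 265 and 208. Those libraries differed from each other by 25.5, and replicates of the other culture groups by 6.51 to 185. The share of all genes called without KO vehicle normoxia 3 is not given here.

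The rise of Mgp in WT cells in normoxia was 2.90 ± 0.12 (7.47-fold, FDR 7.12e-17), and its p-value ranked 21 and its size 77 from the top among 14496 genes. In KO cells in normoxia Mgp went from 143 ± 14.5 to 126 ± 9.78 CPM, a difference of -0.19 ± 0.11 (FDR 0.679) with overlapping libraries. In WT cells in hypoxia Mgp fell by 0.30 ± 0.11 on the log2 scale (FDR 0.0482). This fall was lost without WT vehicle hypoxia 2, WT POVPC hypoxia 1 or WT POVPC hypoxia 2 (-0.20, -0.22 and -0.32). It was also lost in DESeq2 (-0.29, FDR 0.0609), with RLE factors, library size alone, the 5 CPM filter, fits without robust estimation, only the groups compared and without the 3 shallowest libraries (FDR 0.0580 to 0.603), in all 10 of 15 alternatives. Mgp thus rose with POVPC in normoxia and fell in hypoxia in the WT line, the fall at the edge of the test, and the difference between the 2 oxygen levels was not tested.

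Runx2 rose with POVPC in WT cells in normoxia, from 14.4 ± 0.452 to 22.5 ± 2.16 CPM (0.64 ± 0.14, FDR 8.44e-04), and its libraries did not overlap. Sox9 rose there from 25.1 ± 4.08 to 34.3 ± 2.36 CPM (0.45 ± 0.11, FDR 0.00301) and fell in hypoxia from 39.8 ± 3.73 to 31.3 ± 1.67 CPM (-0.35 ± 0.11, FDR 0.0305). The fall of Sox9 was lost without WT vehicle hypoxia 2 or 3 or WT POVPC hypoxia 1 or 3 (-0.28 to -0.36), with only the groups compared (-0.32) and without the 3 shallowest libraries (-0.33). Enpp1 fell with POVPC in WT cells at both oxygen levels, by 0.43 ± 0.10 and 0.65 ± 0.12 on the log2 scale. Tnfrsf11b and Chad were not called in any of the 4 POVPC tests, but Tnfrsf11b in WT cells in normoxia was called lower with library size alone (-0.39, FDR 0.0166) and with only the groups compared (-0.26, FDR 0.0388).

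In WT cells in normoxia markers of other cell states moved with POVPC too. Acta2 (smooth muscle actin) averaged 263 CPM with vehicle and 60.0 CPM with POVPC, and summed contractile markers ran from 313 to 368 and from 160.3 to 196 CPM. Summed macrophage markers ran from 29.5 to 32.3 CPM with vehicle and from 53.6 to 63.9 CPM with POVPC, with the defining marker Trem2 at 0 in both groups and Lyz2 at 0 with POVPC. In KO cells in normoxia the macrophage sum was 15.8 to 18.6 CPM with vehicle and 13.8 to 16.2 CPM with POVPC. Whether these differences play a part in the Mgp, Runx2 and Sox9 results was not tested.

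**Figure D4:**
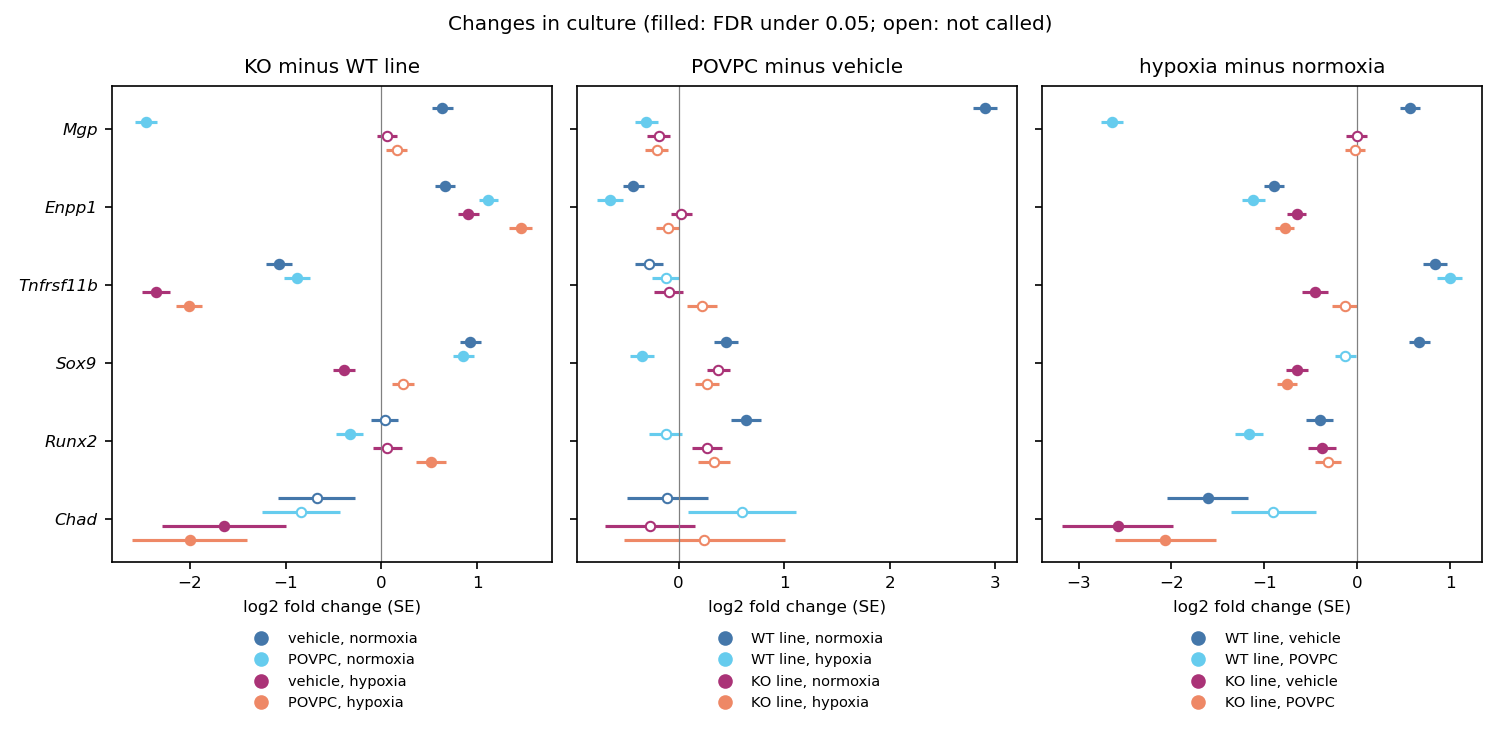
Log2 fold changes (horizontal axes) of the 6 genes tested in culture with their SE, for KO against WT cells (left), POVPC against vehicle (middle) and hypoxia against normoxia (right), 4 tests a panel; filled points passed an FDR of 0.05 and open points did not. The Mgp point at 2.90 for POVPC in WT cells in normoxia is the one large POVPC change, Tnfrsf11b moves in opposite directions in WT and KO cells in hypoxia with vehicle, and Enpp1 lies left of 0 in all 4 hypoxia tests.

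Hypoxia lowered Enpp1 in both lines with either treatment, raised Tnfrsf11b in WT cells, and lowered Chad and Runx2 in 3 of 4 tests each. Under vehicle 6 of 6 genes were called in WT cells (3 higher and 3 lower, where 68.1% of all genes were called) and 5 of 6 in KO cells, all lower (65.4% of all genes). With POVPC 1 gene rose and 3 fell in WT cells (66.1% of all genes), and 0 rose and 3 fell in KO cells (68.5%). These shares were near the background, since hypoxia moved about as large a part of all genes.

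Enpp1 fell in hypoxia by 0.90 ± 0.11 and 1.12 ± 0.12 on the log2 scale in WT cells with vehicle and POVPC, and by 0.65 ± 0.10 and 0.78 ± 0.10 in KO cells. In WT cells with vehicle its libraries went from 17.9, 17.6 and 16.7 CPM to 8.93, 8.95 and 10.1 CPM. Chad fell by 1.61 ± 0.43 in WT cells with vehicle, by 2.58 ± 0.60 in KO cells with vehicle and by 2.07 ± 0.54 in KO cells with POVPC. The KO hypoxia libraries were at 0.0844 to 0.249 CPM, which is under or near what 3 counts stand for, so the sizes of these falls are imprecise. Runx2 fell in WT cells by 0.40 ± 0.14 with vehicle and 1.16 ± 0.15 with POVPC, and in KO cells by 0.38 ± 0.15 with vehicle. The Runx2 fall in WT cells with vehicle was lost without WT vehicle hypoxia 1 or 2 (-0.32 and -0.34). The one in KO cells was lost without KO vehicle normoxia 3 or KO vehicle hypoxia 2 or 3 (-0.25 to -0.32), with only the groups compared (-0.38) and without the 3 shallowest libraries (-0.30). The remaining Runx2 test, KO cells with POVPC, gave -0.31 and was called in 9 of 15 alternatives, DESeq2 among them (-0.34, FDR 0.0391). The remaining Chad test, WT cells with POVPC, was called without WT POVPC hypoxia 1 (-1.61, FDR 0.0102) and without the 3 shallowest libraries (-1.74, FDR 0.0216).

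Tnfrsf11b rose in hypoxia in WT cells, by 0.83 ± 0.13 with vehicle and 0.99 ± 0.13 with POVPC, and fell in KO cells with vehicle by 0.45 ± 0.14. In KO cells with POVPC it differed by -0.14 ± 0.14 (FDR 0.379), or by -0.39 (FDR 0.00368) without KO POVPC hypoxia 2, its highest library. Sox9 rose in WT cells with vehicle (0.66 ± 0.11) and fell in KO cells with vehicle (-0.65 ± 0.11) and with POVPC (-0.76 ± 0.11). Mgp rose in WT cells with vehicle, from 92.4 ± 4.38 to 137 ± 17.8 CPM (0.57 ± 0.11), and fell with POVPC from 690.5 ± 74.8 to 111 ± 12.2 CPM (-2.64 ± 0.12, 6.23-fold). In KO cells Mgp differed by -0.0090 ± 0.11 and -0.028 ± 0.11, not called.

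Fibroblast and collagen genes of these cells moved in hypoxia too: of the 6 adventitial fibroblast markers 1 rose and 4 fell in WT cells with vehicle, and 0 rose and 5 fell in KO cells. The summed adventitial fibroblast markers went from between 4636 and 4683 to between 524 and 575 CPM in WT cells with vehicle, and from between 3387 and 4036 to between 839 and 887 CPM in KO cells. Col1a1, the main collagen of bone and artery, averaged 1203 CPM in normoxia and 626 CPM in hypoxia in WT cells with vehicle. Their part in the changes of the 6 genes was not tested.

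The promoters of the 3 genes that fell in hypoxia in WT cells with vehicle (Enpp1, Chad and Runx2) are shown because oxygen-responsive factors bind short DNA words that can be looked for in them. Each run holds the 250 bases before the transcription start, 5′ to 3′ on the gene's strand, from RefSeq on GRCm38.p6, and capitals mark ACGTG or GCGTG on either strand (CACGT or CACGC on the other), the core of the hypoxia response element.
Enpp1, chr10:24712160-24712409, minus strand: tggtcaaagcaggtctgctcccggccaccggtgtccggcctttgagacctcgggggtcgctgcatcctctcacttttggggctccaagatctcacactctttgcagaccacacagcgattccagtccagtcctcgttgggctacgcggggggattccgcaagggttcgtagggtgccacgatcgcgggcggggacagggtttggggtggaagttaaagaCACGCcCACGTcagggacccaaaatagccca
Chad, chr11:94564797-94565046, plus strand: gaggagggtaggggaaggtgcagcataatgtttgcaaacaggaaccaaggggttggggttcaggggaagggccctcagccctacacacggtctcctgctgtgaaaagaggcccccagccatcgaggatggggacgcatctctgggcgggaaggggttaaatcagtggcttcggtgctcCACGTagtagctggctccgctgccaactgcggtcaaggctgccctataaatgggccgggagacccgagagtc
Runx2, chr17:44814628-44814877, minus strand: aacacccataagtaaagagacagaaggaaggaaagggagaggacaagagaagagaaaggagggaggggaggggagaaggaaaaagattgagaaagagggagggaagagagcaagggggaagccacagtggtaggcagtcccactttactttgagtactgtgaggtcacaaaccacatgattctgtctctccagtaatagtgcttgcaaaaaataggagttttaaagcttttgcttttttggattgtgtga
Enpp1 held 2 matches, 31 and 25 bases upstream of the start, Chad held 1 at 72 bases, and this Runx2 window held 0. The words were found in 38.6% of the 32851 promoter windows of the same length, so a match is common. A match is a description and not a site. The Runx2 and Enpp1 windows each held the letters of the RUNX word TGTGGT (as ACCACA on the other strand, 80 and 144 bases upstream), which 14% of windows held. The promoter table held 6 of the 10 genes (Runx2, Alpl, Acan, Enpp1, Ibsp and Chad).

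In the files' own build, mm9, Enpp1 lies at chr10:24361217-24431908, Chad at chr11:94426388-94430441, Runx2 at chr17:44740950-44951746, Mgp at chr6:136820956-136824326, Tnfrsf11b at chr15:54082174-54110039 and Sox9 at chr11:112643524-112649071. Sp7 lies at chr15:102187608-102196702, Alpl at chr4:137297647-137352292, Acan at chr7:86198369-86259985 and Ibsp at chr5:104728306-104740491. Counts were of exons summed over each gene, so these are whole-gene values without regard to isoform.

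The interaction tests asked whether the lines differed in a response. Mgp was the clearest: its response to POVPC in normoxia was lower in KO than in WT cells by 3.09 ± 0.16 on the log2 scale (-3.09, FDR 3.63e-14), the p ranking 15 of 14496. Its response to hypoxia with POVPC was higher in KO cells by 2.61 ± 0.16, from the same high WT group, and with vehicle it was lower (-0.58 ± 0.15). In the POVPC responses 1 gene was called higher and 1 lower in normoxia (16.2% of all genes), and 2 higher and 0 lower in hypoxia (9.37%). In the hypoxia responses 0 were higher and 3 lower with vehicle (39.1% of all genes), and 2 higher and 2 lower with POVPC (30%).

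Tnfrsf11b and Sox9 also answered hypoxia differently in the lines. The response of Tnfrsf11b was lower in KO cells by -1.28 ± 0.19 with vehicle and -1.13 ± 0.19 with POVPC, and that of Sox9 by -1.31 ± 0.16 and -0.63 ± 0.16. The response of Runx2 to hypoxia was higher in KO cells with POVPC (0.85 ± 0.21, FDR 0.00233), and with vehicle the difference was 0.03 ± 0.21 (FDR 0.940). The response of Enpp1 to POVPC was higher in KO cells, by 0.45 ± 0.14 in normoxia (FDR 0.0270) and 0.54 ± 0.16 in hypoxia (FDR 0.0296). That of Sox9 was higher by 0.61 ± 0.16 in hypoxia (FDR 0.0141), with -0.35 in WT cells and 0.27, not called, in KO cells. These 3 differences between the lines were near the threshold. The Enpp1 call in normoxia was lost without WT vehicle normoxia 1 or 2, WT POVPC normoxia 2 or 3, KO vehicle normoxia 2 or KO POVPC normoxia 1 (0.38 to 0.44), or without a filter (0.42). The Enpp1 call in hypoxia was lost without WT vehicle hypoxia 3, WT POVPC hypoxia 1, KO vehicle hypoxia 3 or KO POVPC hypoxia 1 or 2 (0.47 to 0.51) and with only the groups compared (0.53), the Sox9 call without KO vehicle hypoxia 3 (0.55), and both without the 3 shallowest libraries (0.46 and 0.56).

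Of the wider list 38 genes were tested in culture. The list was written with earlier results of these data known, so its shares are not independent of them. Between the lines 57.9% of them were called with vehicle and 63.2% with POVPC in normoxia, near the shares of all genes (60.6% and 60.2%), and 81.6% and 73.7% in hypoxia (59.9% and 57.6% of all genes). Between the lines under vehicle in normoxia 11 were higher and 11 lower in KO cells, led by Ctsk (-7.71 ± 0.19, from 88.0 to 0.423 CPM), the hypertrophic cartilage collagen Col10a1 (-5.46 ± 0.18), the parathyroid hormone receptor Pth1r (-3.51 ± 0.17), the nucleotide pyrophosphatase Enpp3 (5.29 ± 0.29, from 0.197 to 7.86 CPM), the macrophage growth factor Csf1 (-2.42 ± 0.14) and the RUNX partner Cbfb (0.71 ± 0.066). With POVPC in normoxia 11 were higher and 13 lower, led by Ctsk (-6.60 ± 0.18), Col10a1 (-3.98 ± 0.17) and the matricellular Postn (2.53 ± 0.13). With vehicle in hypoxia 14 were higher and 17 lower, led by Ctsk (-5.00 ± 0.17), Postn (2.91 ± 0.15) and the vitamin K-dependent ligand Gas6 (-2.02 ± 0.12). With POVPC in hypoxia 12 were higher and 16 lower, led by Ctsk (-3.98 ± 0.16), osteomodulin (Omd, 2.59 ± 0.12) and Gas6 (-2.14 ± 0.12). Ctsk was lower in KO cells in each condition, as Tnfrsf11b was.

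With POVPC in WT cells 44.7% of the wider list were called in normoxia and 42.1% in hypoxia, beside 26.9% and 21% of all genes. There 6 rose and 11 fell in normoxia, led by Omd (-1.30 ± 0.10), Gas6 (-0.99 ± 0.085) and Postn (-1.57 ± 0.13), and 6 rose and 10 fell in hypoxia, led by Omd (-2.16 ± 0.12), Csf1 (-1.67 ± 0.14) and the collagen-binding Sparc (-0.63 ± 0.086). In KO cells in normoxia 0 rose and 1 fell, the cartilage collagen Col2a1 (-1.25 ± 0.19, FDR 0.00452), while Pth1r (0.55 ± 0.19) was not called. In KO cells in hypoxia 1 rose and 2 fell: Spp1 (0.94 ± 0.22), Postn (-0.78 ± 0.13) and Col11a1 (-0.70 ± 0.13). With POVPC in KO cells 2.63% of the wider list was called in normoxia and 7.89% in hypoxia. Of all genes 0.0414% and 4.06% were called there, so few genes of any kind were.

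In hypoxia 47.4% to 57.9% of the wider list fell and 18.4% to 28.9% rose over the 4 tests, beside 32.8% to 35.3% and 31.8% to 34.5% of all genes. With vehicle 7 rose and 21 fell in WT cells, led by Gas6 (-3.82 ± 0.098), Col1a2 (-3.61 ± 0.12) and Col11a1 (-4.33 ± 0.14), and 10 rose and 18 fell in KO cells, led by Gas6 (-4.93 ± 0.12), Col1a2 (-4.89 ± 0.12) and Col11a1 (-3.19 ± 0.13). With POVPC 7 rose and 22 fell in WT cells, led by Col1a2 (-3.90 ± 0.12), Gas6 (-2.62 ± 0.098) and Omd (-3.14 ± 0.12), and 11 rose and 19 fell in KO cells, led by Gas6 (-4.78 ± 0.11), Col1a2 (-5.16 ± 0.13) and Col11a1 (-3.91 ± 0.13). In the interactions Omd was among the 3 smallest p-values in each of the 4 tests (1.20 ± 0.14, 1.86 ± 0.16, 1.73 ± 0.14 and 2.38 ± 0.16). The other leading genes were Postn (1.58 ± 0.17) and Gas6 (0.91 ± 0.12) for POVPC in normoxia and Csf1 (1.69 ± 0.19) and Col11a1 (-1.15 ± 0.19) for POVPC in hypoxia. For hypoxia they were Col10a1 (3.30 ± 0.33) and Trps1 (1.61 ± 0.17) with vehicle and Gas6 (-2.15 ± 0.15) and Ctsk (2.62 ± 0.27) with POVPC. The counts of interaction calls were 9 higher and 3 lower and 9 higher and 2 lower for POVPC, and 14 higher and 13 lower and 12 higher and 9 lower for hypoxia. In all 31.6% and 28.9% were called for POVPC (16.2% and 9.37% of all genes) and 71.1% and 55.3% for hypoxia (39.1% and 30% of all genes).

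Profiles over the 8 culture groups were compared with those of the other tested genes by the root mean square difference of centred log2(CPM + 0.5) group means, a description in which the groups share lines and libraries. The nearest 3 genes were Ints4 (0.119), Baiap2l1 (0.133) and Emx2 (0.166) for Sox9, and Rara (0.0896), Sik2 (0.112) and Sepn1 (0.118) for Runx2. They were Fuca1 (0.0935), Zfp580 (0.122) and Ap4s1 (0.142) for Enpp1, and Zic5 (0.169), Ccnd1 (0.179) and Slc25a43 (0.195) for Tnfrsf11b. Chad, whose profile rests on few counts, was nearest to Ccdc159 (0.0952), Slc38a9 (0.112) and Zfp512 (0.114). Mgp had no close neighbour: Ace (0.337), E2f7 (0.387) and Xdh (0.426) were the nearest among 11291 candidates, beside an SD of 0.841 of its own profile.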

How the data were processed

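The authors deposited raw counts per gene, 1 table for 8 lesion libraries and 1 for 24 culture libraries. Per the file headers featureCounts 1.4.4 counted over exons from a UCSC annotation (mm9), added up per gene name without regard to strand, as fragments with both mates mapped in lesions and with each mate counted alone in culture. Counting mates alone makes culture counts vary more than independent molecules would, and intervals of single counts are not given. The submitters' processing notes name CASAVA, STAR, featureCounts, Subread, DESeq2 and mm9.

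The test was edgeR 4.0.16, under R 4.3.3 (filterByExpr by group with a minimum count of 10 and minimum total of 15, TMM, robust quasi-likelihood fits), lesions and culture apart, the 24 culture libraries in 1 model of 8 groups, for 17 comparisons. The SE is the log2 fold change divided by the square root of F. The steps were tested on simulated data.

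The genes and lists were chosen with earlier results of these data known. All 10 genes are described. From the wider list, 6 genes with the smallest p are named in lesions and under vehicle in normoxia between the lines, and 3 in each other comparison, of which 1 is not reported here. For each gene tested in culture the 3 nearest profiles are named, among genes that averaged 1 CPM or more, predicted symbols left out.

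Replicate numbers were not taken as pairs, since most samples with the same number deviated together little. Their correlations of deviations had a median of 0.017 in culture, with 13 of 84 over 0.1, and -0.097 in lesions, with 1 of 4 over 0.1. Samples of different number were not compared, so this does not show that the libraries were unpaired. Alternatives were DESeq2 1.42.0, RLE factors, library size alone, a filter at 5 CPM or none (genes with 1 count or more), a replicate block, fits without robust estimation, only the groups compared, and each library left out. Leaving out KO 4 and WT 1 of the lesions together, and the 3 shallowest culture libraries together, was chosen after seeing the data.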

Additional observations from a re-analysis of the deposited data

Results flagged for a closer look

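Of the 24 interaction results of the 6 genes tested in culture, 11 passed the test for a response that differed between the WT and the KO line. Of all genes 16.2% and 9.37% passed for POVPC in normoxia and in hypoxia. For hypoxia 39.1% passed with vehicle and 30% with POVPC. Differences are given as the KO response minus the WT response on the log2 scale. For POVPC in normoxia these were Mgp (-3.09) and Enpp1 (0.45), and for POVPC in hypoxia Sox9 (0.61) and Enpp1 (0.54). The Enpp1 and Sox9 calls for POVPC were near the threshold and were lost in some alternatives, as given above. For hypoxia with vehicle they were Sox9 (-1.31), Mgp (-0.58) and Tnfrsf11b (-1.28). For hypoxia with POVPC they were Sox9 (-0.63), Runx2 (0.85), Mgp (2.61) and Tnfrsf11b (-1.13). The Mgp values for POVPC in normoxia and for hypoxia with POVPC share the group of WT cells given POVPC in normoxia, where Mgp was at 605, 745 and 721 CPM. In the 20 lesion groups of 4 looked at, 1 per gene and genotype, 0 were flagged by Dixon's test. With 4 animals a group the test finds only extreme cases. It therefore does not show that no animal stood apart, as WT 3 did for Acan.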

How the results depend on the processing

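Of 106 results for single genes 53 were called, 43 of them under every alternative run, and 0 called results turned sign. In lesions DESeq2 called 1 of the 10 genes in place of 0, and in culture it called 2 in place of 3 for POVPC in WT cells in hypoxia and 4 in place of 3 for hypoxia in KO cells with POVPC. Of the 6 genes in culture, the count called for POVPC in WT cells in hypoxia was 3, and 1 when only the groups compared were fitted, 1 without the 3 shallowest libraries, and 1 to 3 with single libraries left out. For the genotype difference in the response to POVPC it was 2 in normoxia (1 without a filter, and 1 to 2 with libraries left out) and 2 in hypoxia (1 with only the groups compared, 0 without the 3 shallowest libraries, and 0 to 2 with libraries left out). For POVPC in KO cells in normoxia the count was 0 to 1, and for hypoxia in KO cells with POVPC 3 to 5, with libraries left out. The cause was not tested, except that fewer libraries enter. Without the 3 shallowest libraries WT POVPC hypoxia keeps 1 library, which is assumed to vary like the others.

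With the replicate number as a block no call of the 10 genes was changed: the counts called stayed at 0 in lesions and at 4, 5, 4 and 4 for genotype, 4, 3, 0 and 0 for POVPC, 6, 4, 5 and 3 for hypoxia and 2, 2, 3 and 4 for the interactions. Same-numbered libraries had correlations of deviations from -0.239 to 0.332 in culture and from -0.644 to 0.114 in lesions.

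Results not called that turned sign were the following (log2). In lesions Tnfrsf11b was -0.042 with library size alone, -0.0090 with the 5 CPM filter, -0.42 without KO 4 and WT 1, and -0.22 to 0.25 with libraries left out. Enpp1 was -0.17 without KO 4 and WT 1 and -0.027 to 0.50 with libraries left out. With library size alone Runx2 between lines with vehicle in normoxia was -0.11, and the difference in the POVPC response in normoxia was 0.10 for Sox9 and 0.014 for Chad. Without the 3 shallowest libraries Mgp between lines with POVPC in hypoxia was -0.0077, Chad for POVPC in WT cells in hypoxia -0.26, and the difference in the POVPC response in hypoxia -0.045 for Mgp and 0.40 for Chad. Without a filter the difference of Runx2 in the hypoxia response with vehicle was -0.062. With libraries left out the ranges were, for Runx2 between lines, -0.092 to 0.11 (vehicle, normoxia) and -0.13 to 0.22 (vehicle, hypoxia). For POVPC they were -0.36 to 0.19 (Chad, WT, normoxia), -0.24 to 0.038 (Runx2, WT, hypoxia), -0.11 to 1.06 (Chad, WT, hypoxia), -0.047 to 0.10 (Enpp1, KO, normoxia), -0.032 to 0.32 (Tnfrsf11b, KO, hypoxia) and -0.14 to 0.92 (Chad, KO, hypoxia). For Mgp in hypoxia in KO cells they were -0.091 to 0.045 (vehicle) and -0.16 to 0.056 (POVPC). For the interactions with POVPC they were -0.20 to 0.042 (Sox9, normoxia), -0.45 to 0.096 (Chad, normoxia), -0.029 to 0.18 (Mgp, hypoxia) and -0.82 to 0.35 (Chad, hypoxia), and with hypoxia -0.16 to 0.19 (Runx2, vehicle).

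Depth limits Sp7 in lesions, Chad in hypoxia, and Sp7, Alpl, Acan and Ibsp in culture.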
